A study of Mus musculus with 8 samples.

Results

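The genes described here are 45 factors of ribosome biogenesis and of telomerase and telomere maintenance, chosen by name, of 54532 genes in the count table. All 45 matched a gene of GRCm38 by symbol. Of these, 44 passed the filter on low counts, which left 9971 genes in all, and Wdr74 did not. They were measured in mouse small intestinal organoids, self-renewing epithelial cultures grown from crypts, with 4 control libraries and 4 libraries of RANKL-treated organoids. RANKL binds RANK, a receptor of the TNF receptor superfamily, and the comparison asks which transcripts changed when RANK was stimulated. The labels give the tissue and the treatment only, and the dose, the duration, the strain, the sex and the age behind these libraries are not given in the sources used here. The study's methods grow mouse organoids in medium with EGF, NOGGIN (a BMP antagonist) and R-spondin, which both groups would share, and keep mouse lines on a C57BL/6J background. Nothing in the labels says that replicates came from separate cultures or animals, so p-values measure the spread between these libraries, which may be technical.

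Ribosomes are built in the nucleolus. RNA polymerase I transcribes a long precursor rRNA, on which small and large subunit assembly factors fold, cut and modify the RNA. Box C/D small nucleolar ribonucleoproteins (snoRNPs) methylate it and H/ACA snoRNPs convert uridines to pseudouridine. The H/ACA core proteins also hold the telomerase RNA, so that dyskerin (Dkc1) belongs to both machines, and shelterin is the complex that covers the chromosome ends on which telomerase works. In the intestine ribosome biogenesis is known to be most active in the dividing cells of the crypt.

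The libraries held 583663 to 7807298 counts (median 3911808 for control, 1613410 for RANKL), so that control libraries were on the whole deeper. Levels are in CPM, that is, counts scaled to a common library total after TMM, and a single count was worth between 0.127 CPM (deepest library) and 1.72 CPM (shallowest). Reads start near the poly(A) tail, so a gene's CPM does not scale with its length. A gene was called where edgeR's quasi-likelihood test gave a Benjamini-Hochberg adjusted p under 0.05 over all 9971 genes. Markers of the epithelium were present, as the label says. The summed level of 8 enterocyte markers ran from 4179 to 4479 CPM in control and from 4130 to 4584 CPM in RANKL libraries, and that of 6 Paneth cell markers from 5019 to 6322 and from 4919 to 5898 CPM. Fibroblast, leukocyte and endothelial markers summed to at most 3.44, 9.69 and 3.44 CPM in any library, with 1 of 6, 3 of 6 and 2 of 4 genes at 0 in all 8 libraries. None of these 16 genes passed the filter.

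The factors fell or did not pass the test, and none rose. Of the 44 tested members, 17 were lower in RANKL-treated organoids and 0 were higher, while over all genes tested 12.4% were lower and 13.6% were higher. The 17 are 38.6% of the members. At an unadjusted p under 0.05, 18 of the 44 members were lower and 0 higher. Of all 9971 genes, 1792 (18%) were lower and 1825 (18.3%) higher at that threshold. DESeq2 and limma-voom also called 0 members higher, and 12 and 14 lower. The median log2 fold change of the members was -0.19, against 0.00 over all genes tested, and 33 of 44 were negative. Every RANKL library was below every control library in 17 of the 44 members (38.6%), beside 11.5% of all genes tested. These are the same 17, called on the same values, so this is no further support. Groups without overlap in either direction made up 24.6% of all genes tested. The changes were small. Dkc1 was the 1 tested member whose fold change was above 2, and the median log2 fold change of the 17 was -0.44. The sum of the members made up 0.685% to 0.77% of the counts in control libraries and 0.556% to 0.586% in RANKL libraries. Without Ncl and Dkc1, which hold many of these counts, the sum was still 4133 to 4326 CPM in control and 3567 to 3710 CPM in RANKL libraries. Of the 27 members not past the test, 11 had a positive and 16 a negative log2 fold change, and for 17 of them the 95% interval stayed within 0.5 of 0.

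**Figure D1:**
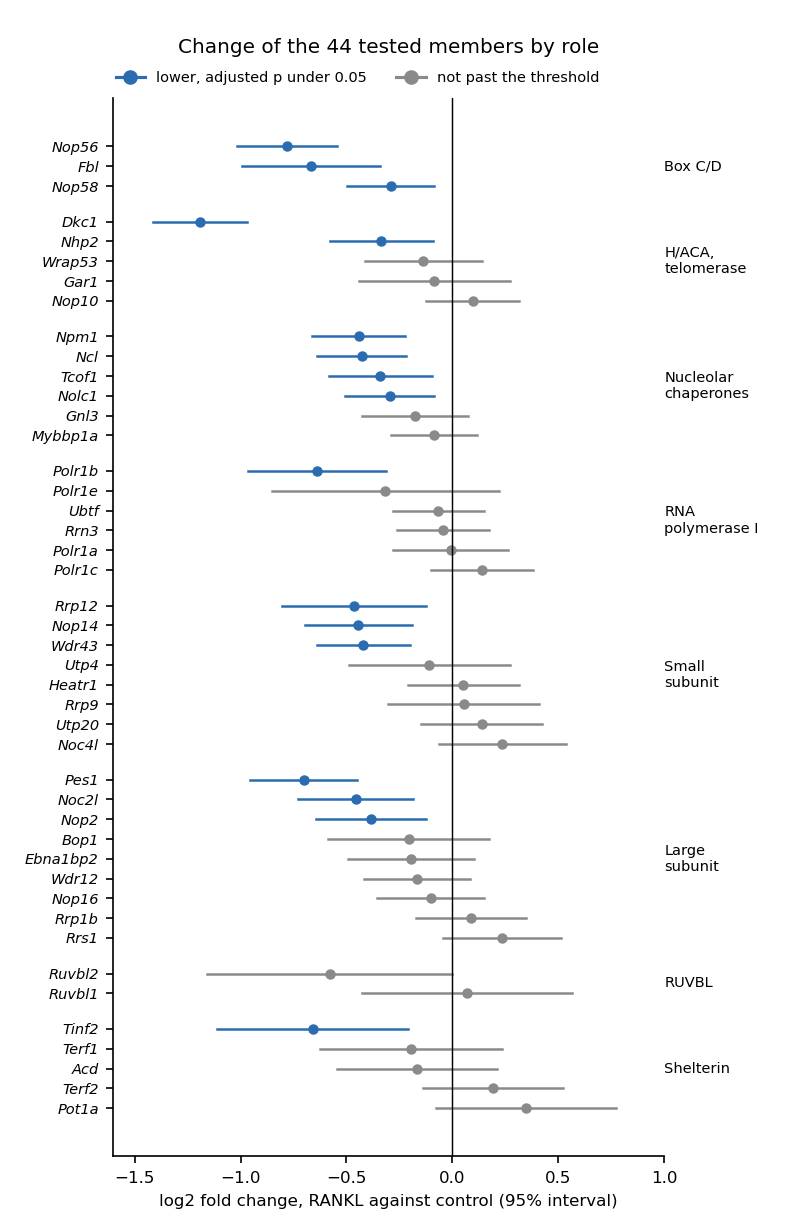
Log2 fold change of each of the 44 tested members (x axis, RANKL against control, point with 95% interval), grouped by role on the y axis. The 17 blue genes were lower past the threshold, with Dkc1 at -1.19 the furthest from 0, and no gene to the right of 0 passed.

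The count of 17 was smaller in some of the alternatives. Adding log2 depth (the library total) to the fit as a covariate gave 9, without RANKL replicate 2 it was 11, and without the 2 shallowest libraries (control replicate 4 and RANKL replicate 1) it was 9, with 0 members higher in each. The median log2 fold change of the members was -0.16 with the covariate, -0.19 without RANKL replicate 2 and -0.15 without the shallowest libraries. Fewer genes were called lower in all, and the members' shares of 20.5%, 25% and 20.5% stood beside 8.1%, 9.36% and 9.58% of all genes. With the covariate the calls lost were Fbl, Nhp2, Nop14, Nop2, Nop58, Npm1, Rrp12 and Tcof1. Without the shallowest libraries they were Nhp2, Noc2l, Nolc1, Nop2, Nop58, Rrp12, Tcof1 and Tinf2. The 6 calls that no alternative removed were Dkc1, Nop56, Pes1, Polr1b, Ncl and Wdr43. In bulk RNA, fewer cells of a type and less RNA per cell cannot be told apart. Markers of stem and dividing cells also moved. Over all genes tested, 12.4% were lower and 13.6% higher. Of 6 stem cell markers 4 were lower (66.7%, Lgr5, Axin2, Ephb2 and Smoc2) and Ascl2 was higher (16.7%). Their sums were 1378 to 1802 CPM in control and 1138 to 1320 CPM in RANKL libraries. Of 12 proliferation genes 4 were lower (33.3%, Bub1b, Mcm3, Mki67 and Pcna) and 0 higher, with sums of 1842 to 2126 and 1615 to 1736 CPM. Among the proliferation genes, Mki67 had a log2 change of -0.37 by edgeR (SE 0.12, adjusted p = 0.023), whereas Top2a had -0.24 (adjusted p = 0.059). Of other epithelial markers, 1 of 8 enterocyte (12.5%) and 3 of 7 enteroendocrine genes (42.9%) were higher. In turn, 1 of 6 Paneth (16.7%) and 1 of 7 goblet cell genes (14.3%) were lower. The enterocyte, Paneth and goblet cell shares were thus near those of all genes. The 1 tested of 5 tuft cell genes did not pass. All 7 tested markers of M cells, which RANKL is known to induce, were higher, with sums of 54.1 to 60.6 and 1876 to 2133 CPM and 1 of the 8 listed genes at 0 in every library. The part of these cell types in the changes below was not tested.

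**Figure D2:**
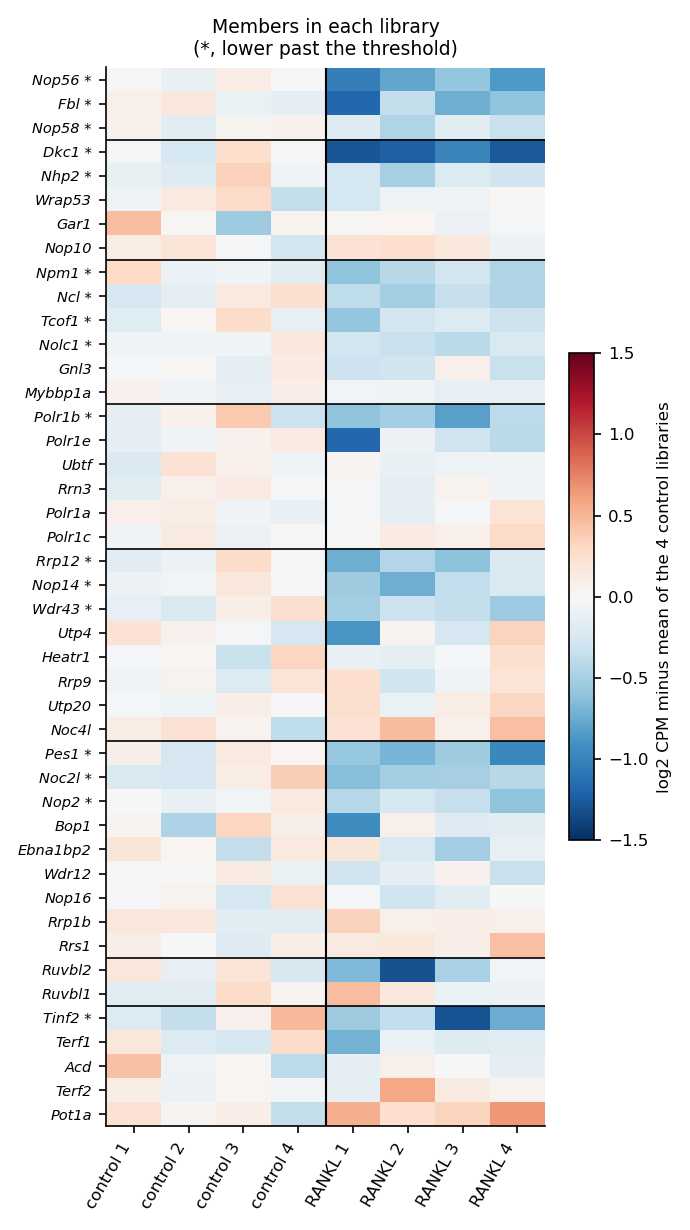
Log2 CPM of each member in each of the 8 libraries minus the mean of the 4 control libraries (colour), with members in rows by role and libraries in columns. Rows marked with an asterisk were lower past the threshold and are blue in all 4 RANKL columns, while the per-library median over members was -0.278 to -0.155 in RANKL and -0.046 to 0.054 in control libraries.

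Dkc1 encodes dyskerin, the pseudouridine synthase of H/ACA snoRNPs and a core protein of telomerase. It lies on chromosome X, 75095854 to 75109777, and had the largest fall of the 44 tested members. Its level was 774, 651, 934 and 789 CPM in control replicates 1 to 4 and 319.7, 335, 393 and 325 CPM in RANKL replicates 1 to 4. The highest RANKL library was thus far under the lowest control library. The means were 787 ± 116 and 343 ± 33.6 CPM (SD, n = 4 each), with a log2 change of -1.19 by edgeR (SE 0.11, adjusted p = 4.1e-10), and the log2 fold change stayed from -1.28 to -1.09 with any 1 library left out. Nhp2, a further core protein of the same particle (chromosome 11, 51619735 to 51623714), had 179.5, 170.1, 247 and 187 CPM in control and 161, 137, 168 and 158 CPM in RANKL libraries. Every RANKL library was lower, though by little, with a log2 change of -0.34 by edgeR (SE 0.12, adjusted p = 0.036). That call was lost under DESeq2 and limma-voom, with the depth covariate and when control replicate 3 or RANKL replicate 1, 2 or 4 was left out.

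The other proteins of the particle did not pass the test. Nop10, which bridges dyskerin and Nhp2, was at 266, 279.9, 240.0 and 203 CPM in control and 284, 293, 273 and 231 CPM with RANKL. The groups overlapped, with a log2 fold change of 0.10 and a 95% interval of -0.12 to 0.32. For Gar1, which joins the mature particle, control libraries were at 59.6, 43.7, 29.9 and 44.7 CPM and RANKL libraries at 43.6, 44.05, 40.7 and 42.8 CPM. Its controls spread more widely than the whole RANKL group, and the log2 fold change was -0.08 (95% interval -0.44 to 0.27), with a sign that turned in the depth and replicate block fits and without control replicate 1. Wrap53, which directs telomerase to Cajal bodies, had 60.5, 70.8, 77.8 and 49.9 CPM in control and 53.3, 60.6, 61.5 and 64.8 CPM in RANKL libraries, again with overlap (log2 fold change -0.14, 95% interval -0.41 to 0.14). Ratios taken within each library set these genes side by side. The genes in them were picked after their values were seen, so the ratios are descriptions with no test. The log2 ratio of Dkc1 to Nop10 was 1.22 to 1.96 in control and 0.17 to 0.53 in RANKL libraries, a difference of the means of -1.32. For the ratios of Dkc1 to Nhp2, Gar1 and Wrap53 the means differed by -0.87, -1.18 and -1.10, and the groups did not overlap in any of them.

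Telomerase reverse transcriptase, Tert, is no member but is the catalytic partner of dyskerin. It lies on chromosome 13, 73626911 to 73649843 and had 29.03, 28.2, 25.6 and 18.9 CPM in control and 9.69, 10.3, 15.6 and 14.8 CPM in RANKL libraries. All RANKL libraries were below all controls, with a log2 change of -1.02 by edgeR (SE 0.21, adjusted p = 0.00034). The call was lost with the depth covariate (log2 fold change -0.74, adjusted p = 0.059). The log2 ratio of Dkc1 to Tert was 4.53 to 5.38 in control and 4.45 to 5.04 in RANKL libraries, so that the groups overlapped. Tert was 1 of 17 tested genes in a list of other telomerase and telomere factors, in which 3 were lower and 1 was higher. Rif1, which acts in replication timing and at telomeres, and Ten1, a subunit of the CST complex, were lower (log2 fold changes -0.40 and -0.48, adjusted p = 0.004 and 0.0039), with the call of Ten1 lost under the depth covariate (-0.40, adjusted p = 0.064). The gene that rose was Tep1, a telomerase-associated protein also found in vaults, with 32.2, 34.3, 30.2 and 24.1 CPM in control and 66.2, 64.01, 42.8 and 64.3 CPM in RANKL libraries and a log2 change of 0.89 by edgeR (SE 0.16, adjusted p = 6.2e-05). The calls are 17.6% lower and 5.88% higher of the list, beside 12.4% and 13.6% of all genes. The telomerase RNA was not analysed here.

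**Figure D3:**
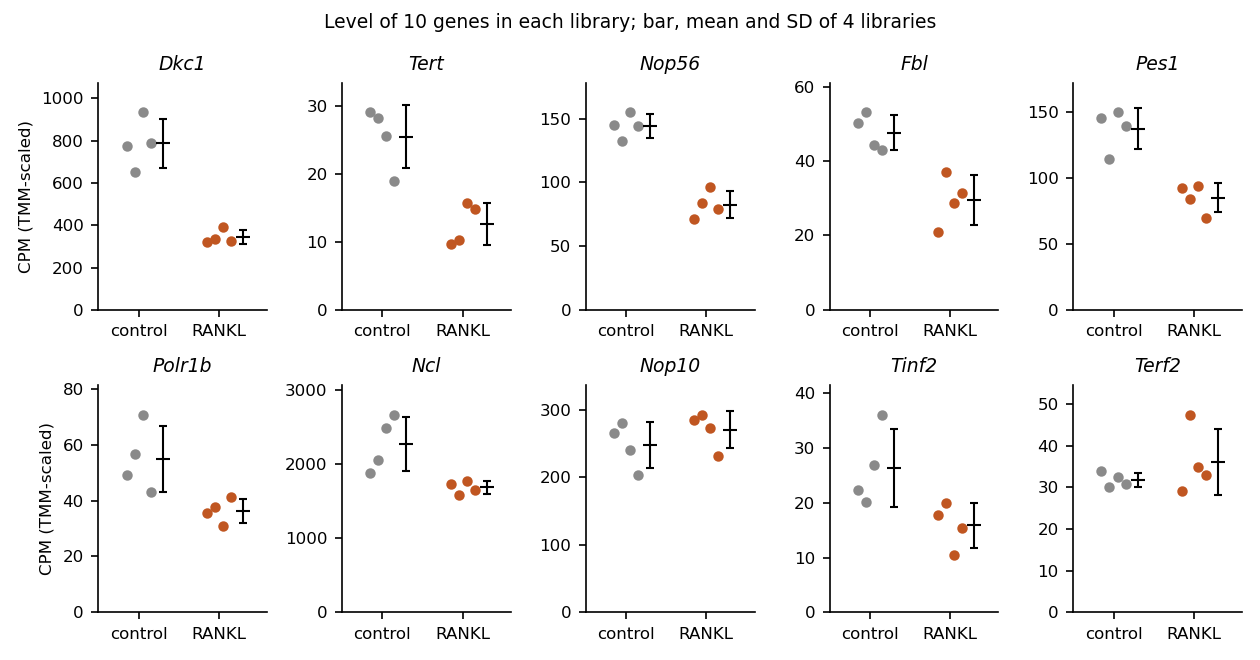
CPM (y axis, linear, from 0) of 10 genes in the 4 control (grey) and 4 RANKL (orange) libraries, with the mean and SD of each group as a bar. Dkc1, Tert, Nop56, Fbl, Pes1, Polr1b, Ncl and Tinf2 have no RANKL library as high as the lowest control, while Nop10 and Terf2 overlap.

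Of the 5 members of shelterin, the telomere cap, 1 was lower and 0 higher (20% lower, beside 12.4% of all genes). Their log2 fold changes ran in both directions, and their summed level was 103.6 to 126.2 CPM in control and 100.1 to 126.6 CPM in RANKL libraries. Tinf2, the hub that joins the duplex-binding proteins to the rest (chromosome 14, 55674689 to 55681820), had 22.3, 20.1, 26.9 and 36.1 CPM in control and 17.8, 19.96, 10.4 and 15.4 CPM in RANKL libraries. The highest RANKL value was just under the lowest control value, with a log2 change of -0.66 by edgeR (SE 0.22, adjusted p = 0.027), a call lost under DESeq2 and without control replicate 3 or RANKL replicate 3 or 4. Terf1, which binds duplex telomere DNA and governs its length, was at 20.8, 16.1, 15.7 and 22.4 CPM and 11.3, 17.2, 16.2 and 16.5 CPM (log2 fold change -0.19, 95% interval -0.62 to 0.24). Terf2, which protects the ends from repair, was at 33.99, 30.1, 32.4 and 30.95 CPM in control and 29.1, 47.5, 34.9 and 32.95 CPM with RANKL, where RANKL replicate 2 was the highest (0.19, interval -0.14 to 0.52). Neither of the duplex binders separated the groups. Acd, which recruits telomerase, had 33.7, 23.6, 25.3 and 18.9 CPM and 22.6, 26.2, 25.03 and 22.5 CPM (-0.17, interval -0.54 to 0.21). The single-strand binder Pot1a had 15.4, 13.7, 14.2 and 10.3 CPM in control and 19.4, 15.8, 16.7 and 20.9 CPM in RANKL libraries. Pot1a was thus higher in every RANKL library, but did not pass edgeR's test (log2 fold change 0.35, adjusted p = 0.24). Every RANKL library above every control was found for 13.1% of all genes tested. The mean log2 ratio of Tinf2 to Terf2 and to Pot1a differed by -0.89 and -1.18 with no overlap of the groups, and that to Terf1 and to Acd by -0.44 and -0.68 with overlap.

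Transcripts of all 3 members that belong to the box C/D core fell (100%, beside 12.4% of all genes). A further core protein, Snu13 (also Nhp2l1), is no member. It was counted in the list of other snoRNP factors below, of which Znhit6 alone passed. Nop56 (chromosome 2, 130274430 to 130279313), a scaffold of the particle, had 145, 133, 155 and 144 CPM in control and 71.03, 83.97, 96.5 and 79.1 CPM in RANKL libraries. The lowest control library stood well above the highest RANKL library, with a log2 change of -0.78 by edgeR (SE 0.12, adjusted p = 4.9e-06), from -0.87 to -0.73 with a library left out. Its paralog Nop58 (chromosome 1, 59684971 to 59719044) fell from 367, 311, 359.6 and 366 to 305, 255, 308 and 278 CPM, with a log2 change of -0.29 by edgeR (SE 0.10, adjusted p = 0.03). Its call was lost with the depth covariate and when control replicate 1 or 4 or RANKL replicate 2 or 4 was left out. Fibrillarin, Fbl, is the methyltransferase (chromosome 7, 28169710 to 28179269) and had 50.2, 53.1, 44.3 and 42.99 CPM in control and 20.99, 37.2, 28.7 and 31.3 CPM in RANKL libraries. RANKL replicate 2 came nearest to the controls, and Fbl had a log2 change of -0.67 by edgeR (SE 0.16, adjusted p = 0.0019), a call lost only with the depth covariate (adjusted p = 0.06) among the alternatives run. The mean log2 ratio of Nop56 to Nop58 differed by -0.52 with no overlap of the groups, and that of Fbl to Nop58 by -0.42 with overlap. In the last 300 bases of their transcripts, 45.8% of the distinct 50-base words of Nop56 and 54.3% of those of Fbl also occur in transcripts of other genes, against 0.373% for Nop58, and the assignment of such reads is uncertain. On the same strand, exons of Nop56 overlap Snord57, Gm23187, Gm23650 and Gm24451, and those of Nop58 overlap Gm26293.

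Among 6 chaperones and organisers of the nucleolus, 4 fell (66.7%, beside 12.4% of all genes) and 0 rose. Nucleolin, Ncl (chromosome 1, 86344719 to 86359400), binds precursor rRNA and is a major nucleolar protein. It had 1885, 2053, 2484 and 2666 CPM in control and 1729, 1584, 1776 and 1647 CPM in RANKL libraries. Controls differed among themselves more than the RANKL libraries did, yet none overlapped, with a log2 change of -0.43 by edgeR (SE 0.10, adjusted p = 0.0022). Its exons overlap Snora75, Gm24148 and mmu-mir-3535 on the same strand. Npm1, nucleophosmin, a histone and ribosome chaperone (chromosome 11, 33152287 to 33163206), had 397, 304, 311 and 291 and 213, 243, 268 and 237 CPM. The controls were again all higher, with a log2 change of -0.44 by edgeR (SE 0.11, adjusted p = 0.0025), a call lost with the depth covariate (adjusted p = 0.081). Near the transcript end of Npm1, 9.94% of the 50-base words also occur in transcripts of other genes. Tcof1, treacle, which recruits factors to ribosomal DNA, was at 128, 147, 175 and 132 CPM in control and 96.9, 119, 126 and 115 CPM in RANKL libraries. Nolc1, a snoRNP chaperone that shuttles to Cajal bodies, was at 172, 174, 174 and 201 and 147, 142, 136 and 154 CPM. Both fell slightly (log2 fold changes -0.34 and -0.30, adjusted p = 0.033 and 0.034). The call of Tcof1 was lost without any 1 of 5 libraries (control replicates 2 and 3, RANKL replicates 1, 2 and 4), and under DESeq2, limma-voom and the depth covariate. That of Nolc1 was lost with scaling by library totals alone and without any 1 of 5 libraries (control replicates 2 and 4, RANKL replicates 1, 2 and 3). Gnl3, nucleostemin, a GTPase of stem and cancer cells, and Mybbp1a, a nucleolar repressor, had log2 fold changes of -0.18 and -0.09 (adjusted p = 0.31 and 0.58), and exons of Gnl3 overlap Snord19, Snord69 and Gm24916 on the same strand.

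Of 6 genes of RNA polymerase I and its initiation factors 1 fell, which is 16.7% and near the 12.4% of all genes. Polr1b encodes the second largest subunit (chromosome 2, 129100995 to 129126594) and had 49.1, 56.6, 70.7 and 42.99 CPM in control and 35.5, 37.9, 30.8 and 41.2 CPM in RANKL libraries. The gap between the groups was narrow, but the fall held in every alternative run, with a log2 change of -0.64 by edgeR (SE 0.16, adjusted p = 0.0029). Of its 50-base words near the transcript end, 20.3% also occur in transcripts of other genes. The largest subunit, Polr1a, was at 57.04, 58.5, 52.2 and 49.9 CPM in control and 53.3, 48.9, 53.7 and 62.6 CPM with RANKL. Its groups overlapped almost fully (log2 fold change -0.01, 95% interval -0.28 to 0.26). The mean log2 ratio of Polr1b to Polr1a differed by -0.58 and that to Polr1c, a subunit shared with polymerase III, by -0.70, both with no overlap of the groups. Ubtf, which opens ribosomal DNA chromatin, had 217, 294, 267 and 239 CPM in control and 259.9, 235, 240.4 and 243 CPM in RANKL libraries. The interval of its log2 fold change was -0.28 to 0.15, and that of Rrn3, the growth-regulated initiation factor, -0.26 to 0.17. Polr1e, at a mean of 10.96 CPM in control, could be judged less well (interval -0.85 to 0.22). Of 11 further polymerase I genes tested, Cd3eap, another subunit of the enzyme, was the 1 that passed, with 77.7, 87.7, 106 and 124 CPM in control and 56.5, 60.6, 65.7 and 41.2 CPM in RANKL libraries and a log2 change of -0.76 by edgeR (SE 0.15, adjusted p = 0.00028). It was lower in all 4 RANKL libraries. The 1 call is 9.09% of those 11 genes, beside 12.4% lower of all genes, and their median log2 fold change was 0.08.

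Rows of the count table that overlap the ribosomal DNA sequence of chromosome 17 also differed. Gm42418 (39846958 to 39848788) and Gm26917 (39843013 to 39846341) lie there, and together with AY036118, at 0 in all libraries, took 1.65% to 3.4% of the counts in control and 1.08% to 1.55% in RANKL libraries. Every RANKL library was lower. Gm42418 had a log2 fold change of -1.11 (adjusted p = 4.9e-06 from edgeR) and Gm26917 of -0.91 (adjusted p = 1.4e-06). The authors removed reads of ribosomal DNA before counting and primed on poly(A), so these counts are no measure of rRNA. Without these rows in the library totals the members still gave 17 lower and 0 higher.

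In small subunit assembly 3 of 8 members fell (37.5%, beside 12.4% of all genes) and 0 rose. Wdr43, of the complex that first binds the nascent precursor (chromosome 17, 71615895 to 71659031), had 298, 280.4, 349 and 383 CPM in control and 226, 259, 254 and 222 CPM in RANKL libraries. All RANKL libraries were lower, in a narrow band, with a log2 change of -0.42 by edgeR (SE 0.11, adjusted p = 0.0036). Nop14, of the processome that forms on the precursor (chromosome 5, 34638536 to 34660148), was at 98.9, 103, 119 and 103 CPM and 72.6, 63.3, 81.9 and 90.1 CPM, with a log2 change of -0.44 by edgeR (SE 0.12, adjusted p = 0.0078). Its call was lost with the depth covariate and without RANKL replicate 2. Rrp12, an export factor (chromosome 19, 41862851 to 41896173), was at 35.5, 37.8, 48.7 and 39.6 CPM and 24.2, 29.6, 26.1 and 34.6 CPM and was close to the threshold, with a log2 change of -0.46 by edgeR (SE 0.17, adjusted p = 0.039), lost in 10 of 20 alternatives. The other 5 members had log2 fold changes from -0.11 (Utp4) to 0.24 (Noc4l, the partner of Nop14), and Heatr1 and Utp20, giant scaffold proteins, had intervals of -0.21 to 0.31 and -0.15 to 0.43. A list of 47 other small subunit factors tested had 7 lower (14.9%) and 1 higher (2.13%), beside 12.4% and 13.6% of all genes. The largest falls in it were those of Nob1, the nuclease that makes the last cut of the small subunit rRNA, Nat10, an RNA acetyltransferase, and Ddx47, an RNA helicase (log2 fold changes -0.79, -0.71 and -0.60, adjusted p = 0.0086, 0.0009 and 0.0064), and the call of Ddx47 was lost with the depth covariate (-0.48, adjusted p = 0.12). Dcaf13 was the 1 that rose (0.38, adjusted p = 0.033, overlapping groups, a call lost in 11 of 20 alternatives).

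In large subunit assembly 3 of the 9 tested members fell (33.3%, beside 12.4% of all genes) and 0 rose. Pes1 (chromosome 11, 3963975 to 3980004), which acts with Bop1 and Wdr12 in 1 complex, had 145, 114, 149.5 and 139 CPM in control and 92.02, 83.97, 93.9 and 69.8 CPM in RANKL libraries. RANKL replicate 4 was the lowest and no library overlapped, with a log2 change of -0.70 by edgeR (SE 0.12, adjusted p = 6.1e-05), and -0.79 to -0.61 with a library left out. Its partners did not pass, Bop1 with a log2 fold change of -0.21 (95% interval -0.59 to 0.17) and Wdr12 with -0.17 (-0.42 to 0.08). Near the transcript end of Wdr12, 20.3% of the 50-base words also occur in transcripts of other genes. Noc2l, which takes precursor particles out of the nucleolus (chromosome 4, 156236010 to 156247616), had 84.3, 82.4, 106 and 127 CPM and 62.96, 68.8, 69.9 and 73.6 CPM, with a log2 change of -0.46 by edgeR (SE 0.13, adjusted p = 0.011). Nop2, a methyltransferase of the large subunit rRNA (chromosome 6, 125131909 to 125144753), had 76.3, 70.3, 74.00 and 84.3 CPM and 56.5, 63.3, 59.97 and 49.98 CPM, with a log2 change of -0.38 by edgeR (SE 0.13, adjusted p = 0.024). Both had all RANKL libraries below all controls, and both calls were lost without the 2 shallowest libraries. That of Nop2 was also lost under DESeq2, with the depth covariate and without RANKL replicate 4. Rrs1, which brings in a small rRNA with its proteins, had the highest log2 fold change of this group (0.23, interval -0.05 to 0.51). Wdr74, under the filter, had 26, 17, 14 and 4 counts in control and 0, 3, 2 and 1 in RANKL libraries. The sums were 61 and 6 counts, in control libraries that were deeper, and in CPM the values were 3.31 to 6.88 and 0 to 2.06, where 3 counts in the shallowest library are 5.16 CPM. Without the filter edgeR gave Wdr74 a log2 change of -1.93 (SE 0.60, adjusted p = 0.017). Among 50 other large subunit factors 5 were lower (10%) and 3 higher (6%), beside 12.4% and 13.6% of all genes. Mrto4, a stalk assembly factor, Ddx21, a nucleolar helicase, and Las1l, a precursor rRNA nuclease, fell most (log2 fold changes -0.54, -0.54 and -0.47, adjusted p = 0.0012, 0.00012 and 0.012). Ddx18, and Efl1 and Eif6, both of a late step of subunit maturation, were higher (0.54, 0.51 and 0.45, adjusted p = 0.031, 0.0034 and 0.013). The call of Ddx18 was lost in 8 of 20 alternatives, DESeq2, the replicate block and the depth covariate among them (adjusted p up to 0.22), and that of Eif6 in 5 of 20 (up to 0.16). That of Las1l was lost without RANKL replicate 4 and at an adjusted p of 0.01. The groups of Eif6 overlapped, and exons of Efl1 overlap Gm45807 on the same strand.

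Ruvbl1 and Ruvbl2 form a ring of ATPases that assembles snoRNPs and telomerase. Ruvbl1 was at 10.4, 10.5, 14.2 and 12.04 CPM in control and 16.1, 13.1, 10.95 and 10.98 CPM in RANKL libraries, with overlap (0.07, 95% interval -0.43 to 0.57). Ruvbl2 was at 11.5, 9.39, 11.7 and 8.60 CPM and 6.46, 4.13, 7.30 and 9.89 CPM, and its groups overlapped in 1 RANKL library, with no call by edgeR (log2 fold change -0.58, adjusted p = 0.14). Both are read from few counts, and 35.5% of the 50-base words near the end of Ruvbl1 occur in another gene. Of 9 tested other factors that assemble snoRNPs, Znhit6 was the 1 past the threshold (-0.33, adjusted p = 0.039), a call lost in 13 of 20 alternatives. That is 11.1% of the list, beside 12.4% lower of all genes.

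Over all 178 tested genes of the other lists for these pathways, 21 were lower and 10 higher, which is 11.8% and 5.62%, and their median log2 fold change was -0.03. The share that fell was therefore near the 12.4% of all genes, unlike that of the 44 members, and this difference between lists was not tested. The members were picked by name with results of these data known, and the other lists were written in the same knowledge.

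**Figure D4:**
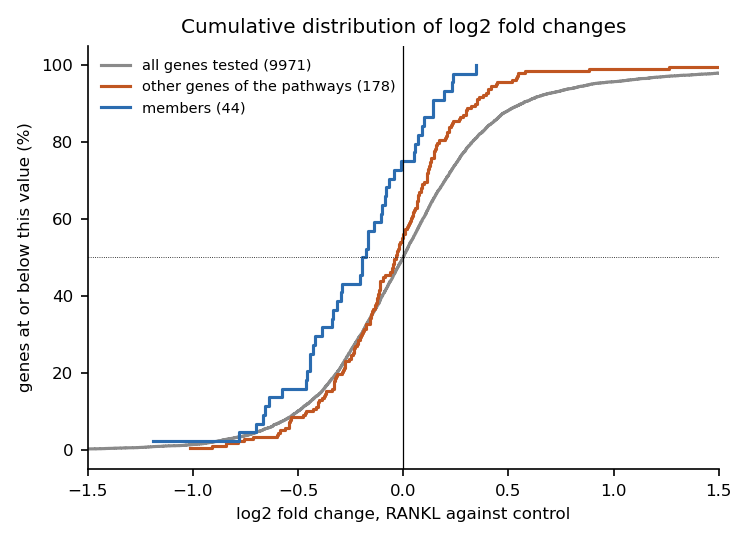
Percentage of genes (y axis) at or below each log2 fold change (x axis, RANKL against control) for all 9971 genes tested (grey), 178 other genes of the pathways (orange) and the 44 members (blue). The members' curve lies left of the grey one around its median of -0.19, and the orange curve crosses 50% at -0.03.

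MYC with its partner MAX is known to drive many of these genes through the E-box, so its network was listed as well. Myc had 9.68, 8.59, 8.36 and 15.5 CPM in control and 6.46, 3.44, 5.22 and 5.49 CPM in RANKL libraries, and every RANKL library was lower. It had a log2 change of -0.91 by edgeR (SE 0.31, adjusted p = 0.029), with the call lost under DESeq2, without the 2 shallowest libraries, and when control replicate 1 or RANKL replicate 2, 3 or 4 was left out. Mycl, a relative, had 22.5, 19.1, 16.7 and 37.8 CPM in control and 79.1, 81.2, 80.8 and 95.02 CPM in RANKL libraries, with a log2 change of 2.00 by edgeR (SE 0.16, adjusted p = 3.2e-11). Its RANKL libraries were thus all above the highest control. Max had 114, 125, 86.9 and 99.7 CPM and 166, 159.7, 132 and 169.7 CPM, with a log2 change of 0.54 by edgeR (SE 0.12, adjusted p = 0.0012). Of the 11 tested genes of the network 4 were higher (36.4%) and 2 lower (18.2%), beside 13.6% and 12.4% of all genes. Mxd1, which competes with MYC for MAX, was higher (0.40, adjusted p = 0.024) and Mxi1, of the same kind, was lower (-0.84, adjusted p = 0.0036), and in both the groups overlapped. The call of Mxd1 was lost in 8 of 20 alternatives, among them DESeq2 and the depth covariate (adjusted p up to 0.36), and that of Mxi1 with the depth covariate (log2 fold change -0.61, adjusted p = 0.14), with values of -1.24 to -0.64 when a library was left out.

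Promoter windows from 250 bases before to 50 bases after a start site (RefSeq, GRCm38.p6) were read for 38 of the 45 members (all but Bop1, Fbl, Npm1, Rrp12, Rrs1, Tcof1 and Terf1), with 49 windows. The E-box letters CACGTG, which read the same on both strands, occurred in 8 of the 49 windows (16.3%), each in another gene, against 7.15% of all 32851 windows and 10.5% of those of genes tested. They were in 3 of the 14 windows of members that fell (Pes1, Nop2 and Wdr43) and in 5 of the 34 windows of tested members that did not pass. These matches are descriptions and no binding was measured. The windows of the fallen genes with a match are printed to show where it lies beside the start site, with that of Rrn3, which holds 2 matches and did not pass the test, and that of Dkc1, the tested member with the largest fall, which holds none. Letters run 5′ to 3′ on the strand of the gene, and capitals mark the E-box.
Pes1, chr11:3963725-3964024, plus strand: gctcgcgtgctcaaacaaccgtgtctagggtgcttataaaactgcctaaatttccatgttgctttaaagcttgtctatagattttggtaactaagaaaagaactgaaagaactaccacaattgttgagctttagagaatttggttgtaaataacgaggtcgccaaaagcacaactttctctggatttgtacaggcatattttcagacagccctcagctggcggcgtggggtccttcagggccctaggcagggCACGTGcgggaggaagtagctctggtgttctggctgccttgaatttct
Nop2, chr6:125131633-125131932, plus strand: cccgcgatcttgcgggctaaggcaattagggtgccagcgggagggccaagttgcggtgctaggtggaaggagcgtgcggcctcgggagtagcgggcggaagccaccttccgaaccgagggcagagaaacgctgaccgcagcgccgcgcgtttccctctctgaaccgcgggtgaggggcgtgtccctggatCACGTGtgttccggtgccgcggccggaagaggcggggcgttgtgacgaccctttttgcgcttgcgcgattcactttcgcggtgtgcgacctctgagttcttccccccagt
Wdr43, chr17:71615965-71616264, plus strand: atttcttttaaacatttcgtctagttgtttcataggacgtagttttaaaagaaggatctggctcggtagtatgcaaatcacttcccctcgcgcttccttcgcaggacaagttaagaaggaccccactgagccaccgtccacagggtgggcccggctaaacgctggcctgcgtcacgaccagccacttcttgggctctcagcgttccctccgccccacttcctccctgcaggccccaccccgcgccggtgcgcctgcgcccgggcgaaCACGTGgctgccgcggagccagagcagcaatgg
Rrn3, chr16:13780449-13780748, plus strand: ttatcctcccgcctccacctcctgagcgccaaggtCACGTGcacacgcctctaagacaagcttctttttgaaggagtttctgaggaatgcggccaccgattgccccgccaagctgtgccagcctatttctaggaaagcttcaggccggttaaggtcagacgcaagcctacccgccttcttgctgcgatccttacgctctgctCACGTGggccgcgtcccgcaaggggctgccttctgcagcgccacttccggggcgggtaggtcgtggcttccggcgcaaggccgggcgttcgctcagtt
Dkc1, chrX:75095604-75095903, plus strand: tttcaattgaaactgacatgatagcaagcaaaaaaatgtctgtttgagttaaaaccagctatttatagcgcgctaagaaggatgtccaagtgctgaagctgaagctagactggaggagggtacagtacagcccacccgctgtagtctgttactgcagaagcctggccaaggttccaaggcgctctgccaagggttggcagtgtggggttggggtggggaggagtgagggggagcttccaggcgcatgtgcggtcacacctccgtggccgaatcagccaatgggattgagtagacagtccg
In Pes1 and Wdr43 the first base of the match stands at 2 and 17 counted from the start site, and in Nop2 60 bases before it. Rrn3 holds its matches 215 and 48 bases before it, with log2 fold change -0.04 (adjusted p = 0.8). A match was therefore present in genes that fell and in genes that did not pass the test.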

How the data were processed

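RNA of 8 libraries of mouse small intestinal organoids was read with a QuantSeq forward kit, as single reads of 50 bases. Trimming by the authors used BBDuk 38.06, and bowtie2 2.3.4.1 took out reads of adapters, phiX, mitochondrial DNA and rDNA. They aligned the rest to GRCm38 with STAR 2.6.0c and counted them strand-specifically on Ensembl release 94 genes with featureCounts 1.6.2. These counts were deposited as such, with no normalization. Their own tests used DESeq2.

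Group and replicate come from the sample titles. Of 54532 genes 54495 matched GENCODE M21 by identifier, from which symbols and coordinates were taken. Counts were analysed in R 4.3.3 with edgeR 4.0.16 (library totals over all genes, TMM, its filter on low counts, quasi-likelihood test of RANKL against control, Benjamini-Hochberg adjustment over 9971 genes, threshold 0.05). The standard error (SE) is the size of the log2 fold change over the square root of F. Alternatives were DESeq2 1.42.0, limma-voom (limma 3.58.1), other scalings and filters, the replicate number as a block, the log2 library total as a covariate, an adjusted p of 0.01 and each library left out. Leaving out the 2 shallowest libraries together was added after the data were seen. The fits were tested on simulated data with known changes.

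The members and all lists were chosen with earlier results of these data known. Every library is printed for each role group's member of highest level, its 3 largest called changes, all H/ACA and shelterin members, and members (such as Nolc1) whose call changed with a library left out or another scaling, as far as needed. Other lists give up to 3 genes each way, those with the largest called change and a mean of 5 CPM or more, plus Tert and Myc. Polr1a and Ruvbl2 are printed by library outside this rule, and they, the ratios, Top2a, Mki67, Snhg1 and Snhg12 were chosen after values were seen. Spearman correlations were 0.958 to 0.986 within and 0.911 to 0.949 between groups, and no 2 libraries agreed within counting noise (chi-square per degree of freedom 1.25 to 15.4). Floors cover counting error alone, as the sources used here mention no molecular identifiers and PCR copies may be counted. The limit behind a 0 is 3 counts, equal to 0.381 CPM at the greatest and 5.16 CPM at the least depth. Protein sequences were not used here.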

Additional observations from a re-analysis of the deposited data

Results flagged for a closer look

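In 50 genes named above or below, each group of 4 libraries was searched for a library far from its nearest neighbour, by Dixon's critical value for 4 samples. Of 100 such groups 5 were past it, which is the number that chance gives at 1 in 20. Among members, control replicate 4 had 201.2 CPM of Nolc1, above the next control at 173.6 CPM, and control replicate 2 had 311 CPM of Nop58, below the next at 359.6 CPM. Both lie above all RANKL libraries. Among genes of the other lists, control replicate 3 had 592.7 CPM of Ddx21 (next 500.1), RANKL replicate 4 had 95.02 CPM of Mycl (next 81.22) and RANKL replicate 3 had 42.76 CPM of Tep1 (next 64.01). The source of these values was not tested.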

How the results depend on the processing

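The members called lower, 17, became 9 with the depth covariate, 9 without the 2 shallowest libraries, 9 at an adjusted p of 0.01, 12 under DESeq2, 14 under limma-voom and 11 to 16 with a library left out, the least without RANKL replicate 2, and none of these fits called a member higher. All genes called, 2587, became 1636 at 0.01 and 1853 to 2601 with a library left out. The median log2 fold change of the members, -0.19, became -0.24 without the low count filter, where that of all genes was -0.107, and -0.22 to -0.14 with a library left out. Genes of the other lists called higher, 10, became 6 under DESeq2, 5 at 0.01 and 7 to 11 with a library left out, and those called lower, 21, became 13 with the depth covariate, 13 at 0.01 and 12 to 24 with a library left out, the least without RANKL replicate 4. Fits with a replicate block called 2610 genes and the same 17 members. Same-numbered libraries had correlations of their deviations of -0.033 to 0.101, and 3 of 8 libraries correlated best with their own number. Of 993 single-gene values under alternatives, 854 kept direction and side of the threshold, 130 lost a call and 9 turned sign, all in genes not past the test. Acd became 0.18 and Gar1 0.08 with the depth covariate, Gar1 0.02 with the replicate block and Ruvbl1 -0.10 with the depth covariate. With a library left out Acd ran from -0.23 to 0.03, Gar1 from -0.28 to 0.17, Ruvbl1 from -0.02 to 0.20 and Ubtf from -0.15 to 0.02. The causes were not tested. Depth limits genes near 10 CPM, where the shallowest libraries hold few counts.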

Other observations

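The RNA exosome and the nucleases that trim precursor rRNA were counted above only within the other lists. Of 20 tested genes of this list 1 was lower and 0 higher, at 5% and 0% beside 12.4% and 13.6% of all genes. Mtrex, the helicase that feeds RNA to the exosome, had 195, 182, 216 and 215 CPM in control and 129, 125, 150.2 and 125 CPM in RANKL libraries. No library overlapped, with a log2 change of -0.59 by edgeR (SE 0.11, adjusted p = 8.8e-05), and the call held in every alternative run. At an unadjusted p under 0.05, 4 of the 20 genes were lower and 2 higher, beside 18% and 18.3% of all genes tested.

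Genes that carry snoRNAs in their introns and make no protein gave 1 higher and 1 lower of 13 tested. That is 7.69% each way, beside 13.6% higher and 12.4% lower of all genes. Snhg17 had 9.55, 5.37, 10.4 and 15.5 CPM in control and 19.4, 23.4, 19.8 and 23.6 CPM in RANKL libraries, and every RANKL library was above every control. It had a log2 change of 1.26 by edgeR (SE 0.24, adjusted p = 0.00017), and its exons overlap 3 other annotated genes on the same strand. Snhg20 was lower (-0.41, adjusted p = 0.041) with overlapping groups, a call lost in 11 of 20 alternatives. Snhg1 and Snhg12 had intervals of -0.24 to 0.19 and -0.28 to 0.37. The snoRNAs themselves lack a poly(A) tail and were not analysed here.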
